A study of Mus musculus with 4 samples.

Results

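The collagen and laminin genes were examined in a mouse model of stroke, over both the injured core and its rim. Members were all genes with a symbol of the form Col, number, a, number, or with a symbol starting with Lama, Lamb or Lamc and a digit. By RefSeq accession, 47 such genes, 38 collagens and 9 laminins, were carried by 75 probes of the array, out of 16535 genes with a symbol and 33269 features in all. Another 8 genes that fit the rule were not matched to a probe and were not analysed here, namely Col6a3, Col6a4, Col6a5, Col12a1, Col20a1, Col22a1, Lama3 and Lama5. A gene with several probes was represented by the brightest.

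In the study, male C57BL/6J mice aged 9 weeks underwent permanent middle cerebral artery occlusion with an intraluminal filament, and tissue was compared at 6 h. All 4 tissues came from animals labelled as given saline, for which the protocol states 1 µl into the cerebral ventricle, and no treated animals were analysed here. The tissues were ischemic core, healthy core, ischemic penumbra and healthy penumbra, the core being the territory of deepest ischemia and the penumbra the tissue around it. Each of 4 two-color Agilent arrays set ischemic against healthy tissue of a region: core 1 and penumbra 3 with the ischemic RNA in the red dye Cy5, core 2 and penumbra 4 with it in the green dye Cy3. The design gives 3 mice per group, but the labels do not say whether their RNA was pooled, whether the arrays of a region held separate extracts, or which animals or hemisphere gave the healthy tissue. Each dye-swapped pair was therefore read as 1 replicate without a p-value, and the SD beside a mean is the SD of its pair of arrays or dyes (n = 2), dye bias included.

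Collagens are triple-helical proteins. The fibrillar types build the tensile fibers of meninges, vessel walls and other connective tissue, and type IV forms the sheet of the basement membrane. Laminins are trimers of an alpha, a beta and a gamma chain that polymerise into the other sheet of that membrane and anchor cells to it through integrins and dystroglycan. In the brain, basement membranes line the endothelium, pericytes, astrocyte endfeet and the pial surface, and their breakdown is a known feature of ischemic injury, while fibrillar collagens come mainly from fibroblasts of the meninges and of larger vessels.

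All 8 channels came from 1 slide scanned on 1 day, had 76.07 to 79.41% of spots well above background, and held no saturated spot. Of the 47 members, 42 were well above background in every channel, 3 in part of them (Col10a1, Col4a3 and Col17a1), and 2, Col28a1 and Col6a6, in none. All 6 cortical neuron markers, 5 astrocyte markers and 8 endothelial markers were well above background, but the labels' division into core and penumbra has no marker of its own. Ratios are relative to the array as a whole: scaling to the spike-in control transcripts instead lowered every ischemic over healthy log2 ratio by 0.48 in the core and by 0.46 in the penumbra. It raised every core minus penumbra difference by 0.16 in healthy tissue and by 0.18 in ischemic tissue. Since this was bulk tissue, fewer cells of a type and less RNA per cell cannot be told apart.

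The promoters of 4 members are shown because their genes are among those the comparison of fibrillar with basement membrane collagens turns on. Col3a1 and Col1a2 shared a pattern across the tissues, and Col4a1 and Col4a2, which lie head to head, did not share it. Col1a1 shared the pattern too, but had no window in the promoter set used. The sequences are RefSeq's for GRCm38.p6, from 250 bases before the start to 50 after it, and capitals mark CCAAT (a box bound by NF-Y, found in many collagen promoters) or TATAA, on either strand.
Col3a1 (chr1:45311288-45311587, plus strand): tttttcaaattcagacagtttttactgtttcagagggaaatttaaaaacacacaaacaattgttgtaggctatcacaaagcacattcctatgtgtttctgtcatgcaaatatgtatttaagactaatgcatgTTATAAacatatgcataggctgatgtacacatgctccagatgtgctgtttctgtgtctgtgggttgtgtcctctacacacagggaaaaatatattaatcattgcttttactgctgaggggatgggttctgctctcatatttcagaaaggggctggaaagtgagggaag
Col1a2 (chr6:4505368-4505667, plus strand): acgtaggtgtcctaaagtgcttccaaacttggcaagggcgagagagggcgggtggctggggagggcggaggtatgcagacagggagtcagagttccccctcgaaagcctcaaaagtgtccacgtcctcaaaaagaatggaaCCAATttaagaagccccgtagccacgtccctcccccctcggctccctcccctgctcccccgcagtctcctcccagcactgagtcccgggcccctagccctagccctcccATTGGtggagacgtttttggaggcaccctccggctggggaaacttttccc
Col4a1 (chr8:11312777-11313076, minus strand): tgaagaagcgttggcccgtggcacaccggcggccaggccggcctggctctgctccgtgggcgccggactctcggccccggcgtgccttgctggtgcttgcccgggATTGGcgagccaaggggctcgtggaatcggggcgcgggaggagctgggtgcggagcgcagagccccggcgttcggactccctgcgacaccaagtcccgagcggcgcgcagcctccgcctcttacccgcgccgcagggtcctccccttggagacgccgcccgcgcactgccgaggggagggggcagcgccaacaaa
Col4a2 (chr8:11312555-11312854, plus strand): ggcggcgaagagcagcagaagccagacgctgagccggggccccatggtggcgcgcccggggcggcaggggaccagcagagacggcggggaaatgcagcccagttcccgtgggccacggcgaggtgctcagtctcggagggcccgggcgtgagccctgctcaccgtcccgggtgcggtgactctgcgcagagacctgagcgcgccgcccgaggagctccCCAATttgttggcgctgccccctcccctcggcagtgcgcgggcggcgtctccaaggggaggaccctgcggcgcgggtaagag
The starts of Col4a1 and Col4a2 lie 21 bases apart on opposite strands, so their windows share 78 bases. The Col1a2 window held CCAAT once on each strand and that of Col3a1 none, while the Col3a1 window held TATAA once on each strand, overlapping each other. CCAAT was in 37.4% of all 32851 promoter windows and in 33.3% of the members' 39 windows, and TATAA was in 24.9% and 23.1%. These letters are a description of the windows and not evidence of binding.

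In the core, the members were set against all features at 6 h of occlusion, and the share of them past either size rule was close to that background. Of 43 measured members, 0 met the size rule (a mean log2 ratio of 1 or more in size, and 1.5-fold or more the same way on both arrays), against 0.31% of all 24538 features measured. By a lower size rule (a mean of at least 0.5, with at least 0.25 on each array) 1 member was lower and 0 were higher, against 1.86% of features in either direction. The members' median log2 ratio was 0.01, against -0.01 over all features, and the members ranged between -0.61 and 0.29. Within 0.5 log2 of 0 lay 97.7% of the members and 98.1% of all features.

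The member lower by that rule was Col3a1, the fibrillar collagen of extensible tissues, whose ratio of ischemic to healthy core was -0.55 on core 1 and -0.67 on core 2. Its mean of -0.61 ± 0.09 is 1.53-fold lower in the ischemic core. Col1a1, which encodes the major chain of type I collagen, had -0.43 and -0.55, with a mean of -0.49 ± 0.09. Col1a2, the other type I chain, had -0.47 and -0.29, with a mean of -0.38 ± 0.13. All 3 genes were lower in the ischemic core on both arrays, and lower under each of the 7 alternative settings that gave a value. Spike-in scaling, which lowers every core ratio, and single arrays, both already below 0, could not have turned these signs. The first percentile of all features was -0.32, so each of these means lay below it. With limma across arrays as an alternative, whose p-values measure only the spread between these arrays, Col3a1 had a Benjamini-Hochberg adjusted p of 0.0018 and Col1a1 of 0.011, while Col1a2, at 0.053, missed the threshold of 0.05. The other 8 fibrillar genes had means between -0.06 and 0.29. Col5a2, which encodes a type V chain and neighbours Col3a1 in the genome, had a ratio of -0.03 on core 1 and -0.04 on core 2. Col11a1, which encodes a chain of the minor fibrillar type XI, had 0.40 and 0.17, but the sign of its mean of 0.29 ± 0.16 turned with spike-in scaling.

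**Figure D1:**
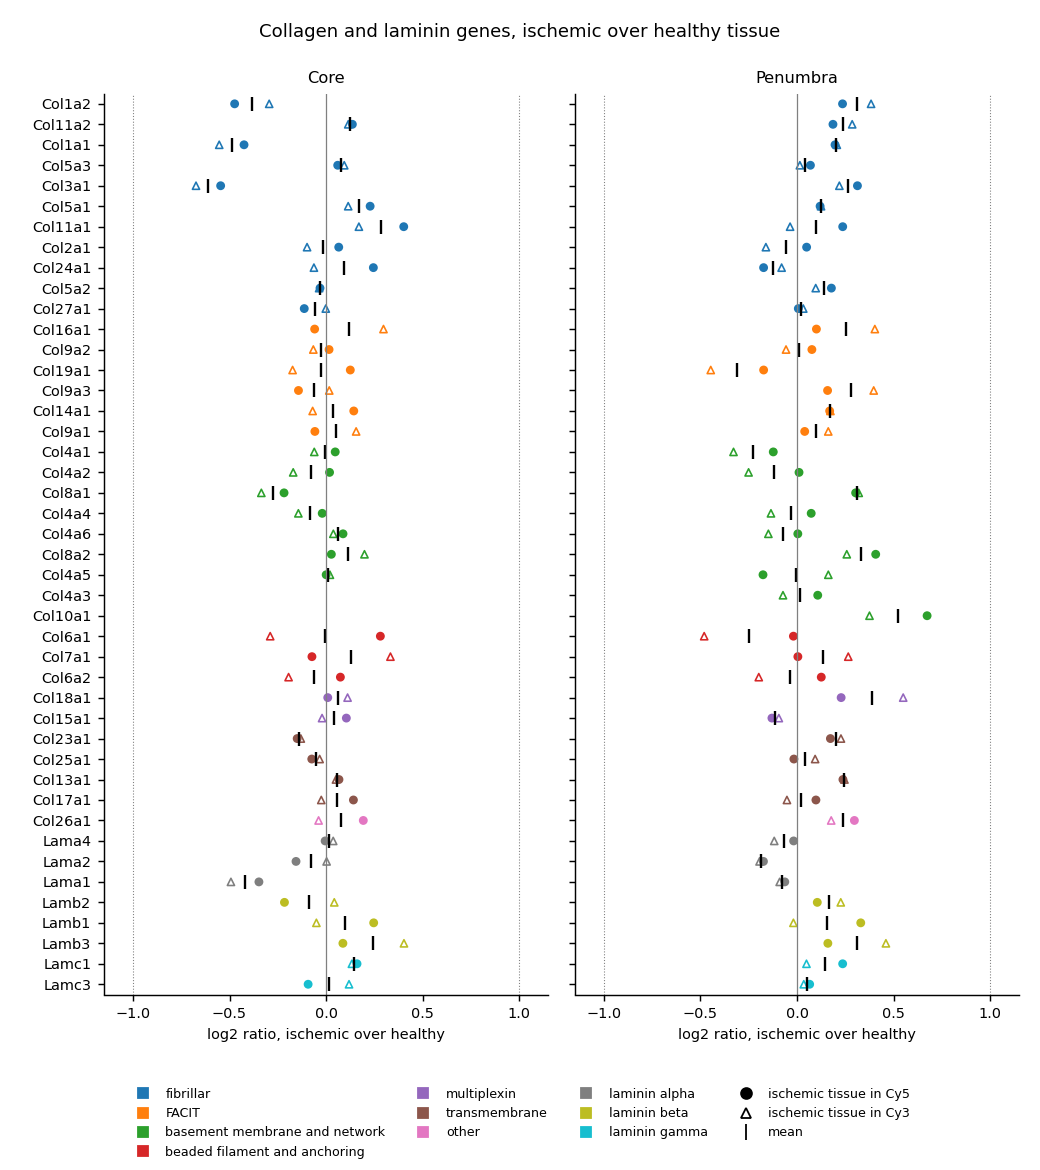
Log2 ratios of ischemic over healthy tissue for members measured in at least 1 region (1 laminin gene is not drawn), by role class and, within a class, by brightness. Filled circles are arrays with ischemic tissue in Cy5, open triangles arrays with it in Cy3, black ticks their mean, and dotted lines mark 1 log2 unit in either direction. Col3a1, Col1a1 and Col1a2 lie left of 0 in the core and right of 0 in the penumbra, where spike-in scaling turns them below 0.

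The 7 measured basement membrane and network collagens had a median of -0.01 in the core, with means between -0.28 and 0.11, and 0 met either size rule. Col4a1 and Col4a2 encode the chains of the most widespread type IV network. Col4a1 had a log2 ratio of 0.05 on core 1 and -0.06 on core 2, and Col4a2 had 0.02 and -0.17. The arrays disagreed in sign for both genes. Col8a1, which encodes a chain of the short-chain type VIII collagen of vessel walls and other matrices, was lower on both arrays, at -0.22 and -0.34, with a mean of -0.28 ± 0.08. The 9 laminins ranged between -0.42 and 0.24, with a median of 0.01. Lowest was Lama1, the alpha 1 chain of laminin-111, at -0.35 and -0.49, with a limma adjusted p of 0.030. Lamc1, the gamma 1 chain of most laminins, had 0.16 and 0.13, and Lama4, the alpha chain of endothelial laminin-411, had -0.01 and 0.04.

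In the penumbra, 45 members were measured and 0 met the size rule, against 0.245% of 24930 features. By the lower size rule 1 member was higher and 0 were lower, against 2.1% of features. The median was 0.10, against -0.01 over all features, and 25 members (55.6%) were above 0 on both arrays, against 30.3% of features, but with spike-in scaling the members' median was -0.36. The range was -0.31 to 0.52. Its top was Col10a1, a network-forming collagen known from growth plate cartilage, at 0.67 on penumbra 3 and 0.37 on penumbra 4. Its probe stood well above background in the ischemic penumbra (2 arrays) but not in the healthy penumbra. The 1.44-fold ratio of their mean signals thus rests on a healthy signal not well above background, and is not a lower limit. Its log2 ratio ranged from 0.06 to 2.35 under the alternative settings.

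Col3a1 had log2 ratios of 0.31 on penumbra 3 and 0.22 on penumbra 4, Col1a1 had 0.20 and 0.21, and Col1a2 had 0.24 and 0.38. Col8a1 had 0.30 and 0.32. These 4 genes, lower in the ischemic tissue of the core, thus lay above 0 on both penumbra arrays, by amounts below the lower size rule, and below 0 with spike-in scaling. Col18a1, whose product is the basement membrane proteoglycan that releases endostatin, had 0.23 and 0.55, with a mean of 0.39, and its other probe a mean of 0.21. Col4a1 had -0.12 and -0.33, and Col4a2 had 0.01 and -0.25, so the means of both type IV genes lay below 0. Spike-in scaling shifts the penumbra ratios by more than the mean of Col18a1, and turns it below 0.

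The difference in ratio between the regions (core minus penumbra) was then computed for 45 members. None met the size rule, against 0.0594% of 25249 features. By the lower size rule, which here asks for a difference of at least 0.5 with no overlap between the core arrays and the penumbra arrays, 4 members were lower in the core and 0 higher, against 0.788% of features in either direction. These were Col3a1, with a difference of -0.88, Col1a2 and Col1a1, each with -0.69, and Col8a1, with -0.59. The first percentile of all features was -0.40. Each of these 4 differences stayed below 0 under all 9 alternative settings, between -0.96 and -0.81 for Col3a1. Leaving out an array could not turn these signs, since the rule already asks for no overlap. Spike-in scaling shifts this difference by only 0.01. With limma over all 4 arrays the smallest adjusted p among members was 0.235, for Col3a1, and with a dye coefficient added it was 1.8e-05. The brightest of the other Col1a1 probes had ratios of -0.35 in the core and -0.10 in the penumbra, so for Col1a1 the position above 0 in the penumbra rested on 1 probe. The other Col8a1 probe had -0.19 and 0.15. The other probe of Col3a1 was too dim to be measured, and Col1a2 had 1 probe.

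The normalized log2 signals of single channels show how the tissues were ordered. Col3a1 had 8.92 and 8.90 in the ischemic core, against 9.46 and 9.57 in the healthy core, and it had 8.60 and 8.57 in the ischemic penumbra, against 8.29 and 8.35 in the healthy penumbra. The healthy core was thus highest, and the ischemic tissues lay closer to each other than the healthy tissues did. Col1a1 had 9.13 and 9.03 in the ischemic core, against 9.56 and 9.58 in the healthy core, and it had 8.82 and 8.93 in the ischemic penumbra, against 8.63 and 8.72 in the healthy penumbra. Col1a2 had 11.19 and 11.25 in the ischemic core, against 11.67 and 11.55 in the healthy core, and it had 11.27 and 11.30 in the ischemic penumbra, against 11.03 and 10.92 in the healthy penumbra. For Col1a2 the ischemic tissues differed by -0.06 ± 0.02 and the healthy tissues by 0.63 ± 0.00. Col8a1 was ordered differently, with 10.46 and 10.37 in the ischemic core, against 10.68 and 10.70 in the healthy core, and 11.14 and 11.12 in the ischemic penumbra, against 10.84 and 10.80 in the healthy penumbra.

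**Figure D2:**
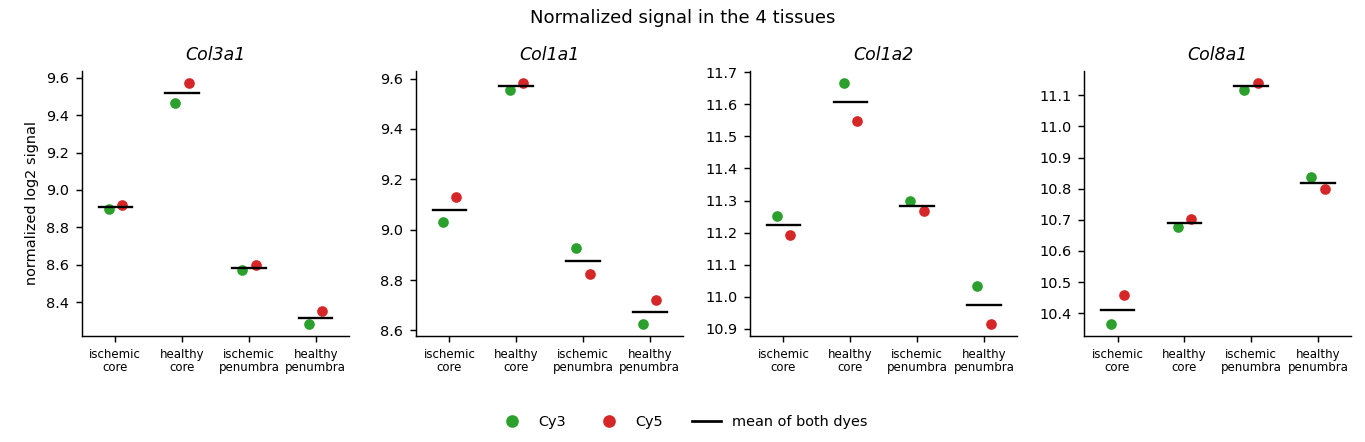
Normalized log2 signal (single channel) of Col3a1, Col1a1, Col1a2 and Col8a1 in the 4 tissues, 1 point per dye with a bar at the mean; each panel has its own axis, which does not start at 0. Type I and III collagen genes were highest in the healthy core, and Col8a1 was highest in the ischemic penumbra.

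Markers of other cells were read beside these genes. Of the 9 markers of meningeal and perivascular fibroblasts, which include no collagen, 7 were below 0 on both arrays in the core (median -0.11) and 8 were above 0 on both in the penumbra (median 0.47, about the size of the spike-in shift). By the lower size rule 0 of the 9 were called in the core, and 4 were higher in the ischemic penumbra. The core minus penumbra median was -0.55, with 5 of the 9 lower. Their summed log2 signal was 14.03 to 14.10 in the ischemic core, against 14.20 to 14.23 in the healthy core, and 14.31 to 14.33 in the ischemic penumbra, against 13.88 to 13.92 in the healthy penumbra. Of the choroid plexus markers, 7 of 7 were above 0 on both penumbra arrays (median 0.64), and 6 of these met the lower size rule. In the core 0 of the 7 markers met either rule (median 0.01). Their summed log2 signal was 15.16 to 15.27 in the ischemic penumbra, against 14.50 to 14.59 in the healthy penumbra, but it was 10.73 to 10.74 in the ischemic core, against 10.73 to 10.79 in the healthy core. All markers of both lists were well above background on at least 1 array of each tissue. Their part in the collagen result was not tested. The 8 endothelial markers had medians of 0.12 (core) and 0.01 (penumbra), and the 9 pericyte and smooth muscle markers of -0.11 and -0.02.

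**Figure D3:**
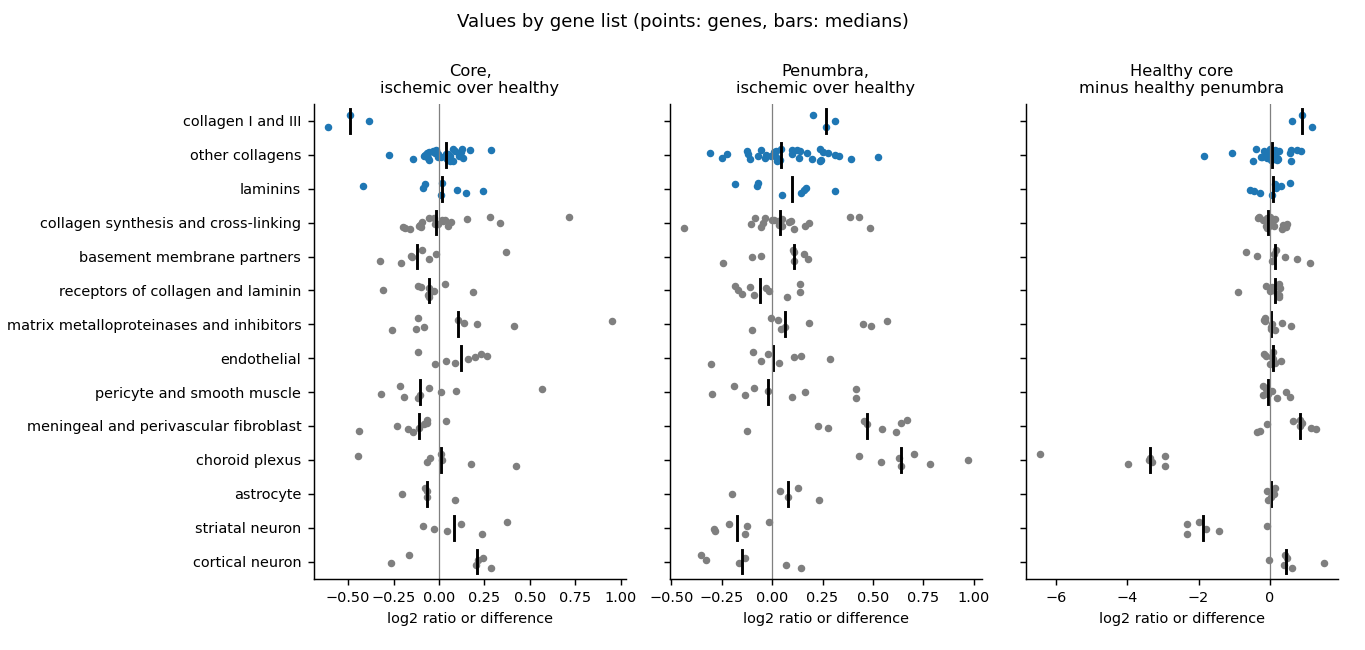
Log2 ratios (core, penumbra) and log2 differences (healthy core minus healthy penumbra) by gene list, 1 point per gene drawn with a bar at their median (1 laminin gene is left out); collagen and laminin genes are blue and other lists grey, and the panels have different ranges. Type I and III collagen genes lie left of 0 in the core, and right of 0 in the healthy tissues and, before spike-in scaling, in the penumbra; of the 9 fibroblast markers 8 lie right of 0 in the penumbra and 6 in the healthy tissues.

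More members differed between the dissected pieces than between ischemic and healthy tissue. Between ischemic core and ischemic penumbra, 45 were measured, with 1 higher and 2 lower by the size rule, against 1.35% of 24875 features. By the lower size rule 5 were higher and 6 lower, against 7.36% of features. Between healthy core and healthy penumbra, 44 members were measured, 1 was higher and 2 were lower by the size rule, against 1.13% of 24894 features in either direction. By the lower size rule 9 were higher and 3 lower, against 5.91% of features. The members' median difference was 0.10, against 0.01 over all features. The fibrillar class had a median of 0.59 over 11 genes, with 6 of them higher by the lower size rule. These differences share arrays with the ratios above, so they are not independent of them.

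Col3a1 differed by 0.32 ± 0.01 between the ischemic tissues. Between the healthy tissues it was 2.30-fold higher in the core than in the penumbra, at 1.22 in Cy5 and 1.18 in Cy3, with a mean of 1.20 ± 0.03. Col1a1 differed by 0.20 ± 0.15 between the ischemic tissues and by 0.90 ± 0.05 between the healthy tissues, and its other measured probe gave 0.23 and 0.48. Col5a1, the type V chain that nucleates fibrils, differed by 0.81 ± 0.20 between the ischemic tissues and by 0.76 ± 0.12 between the healthy tissues, although its other probe gave 0.19 and 0.20. Col24a1, a minor fibrillar gene, differed by 1.24 and 0.95 between the ischemic tissues, where it met the size rule with a mean of 1.09 ± 0.20, and by 0.88 ± 0.08 between the healthy tissues. Its signal was 8.45 and 8.31 in the ischemic core, against 7.21 and 7.36 in the ischemic penumbra, while its ratio to healthy tissue was 0.09 ± 0.22 in the core and -0.13 ± 0.07 in the penumbra. Col11a1 differed by 0.77 ± 0.10 between the ischemic and by 0.59 ± 0.07 between the healthy tissues. Col11a2, the second type XI chain, had -0.51 ± 0.08 and -0.40 ± 0.01, but its other probe was near 0 between the ischemic tissues and at -0.07 between the healthy tissues. The difference between pieces was thus no smaller in ischemic tissue for Col24a1, Col5a1 and Col11a1, and smaller for Col1a1, Col1a2 and Col3a1. The 9 fibroblast markers had a median difference of 0.19 between the ischemic and 0.86 between the healthy tissues, and did not move as one. Between the ischemic tissues 2 of the 9 were higher and 3 lower by the lower size rule, and Zic1 (-1.12) was lower by the size rule. Between the healthy tissues 6 of the 9 were higher in the core by the lower size rule, among them Slc22a6 (1.17) and Aldh1a2 (1.31), which also met the size rule, while Zic1 (-0.36), Pdgfra (-0.26) and Igf2 (-0.08) lay below 0 in both dyes. Their part in the collagen differences was not tested.

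Col8a2, the second type VIII chain, had the largest difference of any member. Its signal was 6.86 and 6.89 in the ischemic core, against 9.00 and 8.89 in the ischemic penumbra, and it was 6.83 and 6.69 in the healthy core, against 8.60 and 8.63 in the healthy penumbra. It was thus 4.20-fold lower in the core between the ischemic tissues (-2.07 ± 0.10) and 3.61-fold lower between the healthy tissues (-1.85 ± 0.12), with no overlap between pieces. The core signals were dim, and the size of these folds depends on the processing. Under the alternative settings the differences ranged from -2.91 to -1.90 between the ischemic tissues and from -2.75 to -1.69 between the healthy tissues. Col9a3, a chain of the fibril-associated type IX collagen, was 2.63-fold lower in the ischemic core (-1.40 ± 0.09) and 2.08-fold lower in the healthy core (-1.05 ± 0.04). The other type IX genes did not share this: Col9a1 differed by 0.08 ± 0.01 and Col9a2 by 0.18 ± 0.18 between the healthy tissues. The 7 choroid plexus markers, all lower by the size rule, had a median of -4.04 between the ischemic tissues and -3.36 between the healthy tissues, and Ttr, which encodes the thyroid hormone carrier of cerebrospinal fluid, had -6.46 in the healthy tissues. Of the 6 striatal neuron markers, 5 were lower in the healthy core, among them Drd1 at -1.98 and Drd2 at -2.33, the dopamine receptors of striatal projection neurons. Of the 6 cortical neuron markers, 2 were higher in the healthy core by the lower size rule, and the median was 0.45. Between the ischemic tissues all 6 were higher in the core by that rule, with a median of 0.69. Between the healthy tissues only 1 met the size rule, Rorb, a layer 4 cortical factor, at 1.51, while Neurod6 was at -0.02 (0.53 between the ischemic tissues). The part of this tissue makeup in the collagen differences was not tested.

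**Figure D4:**
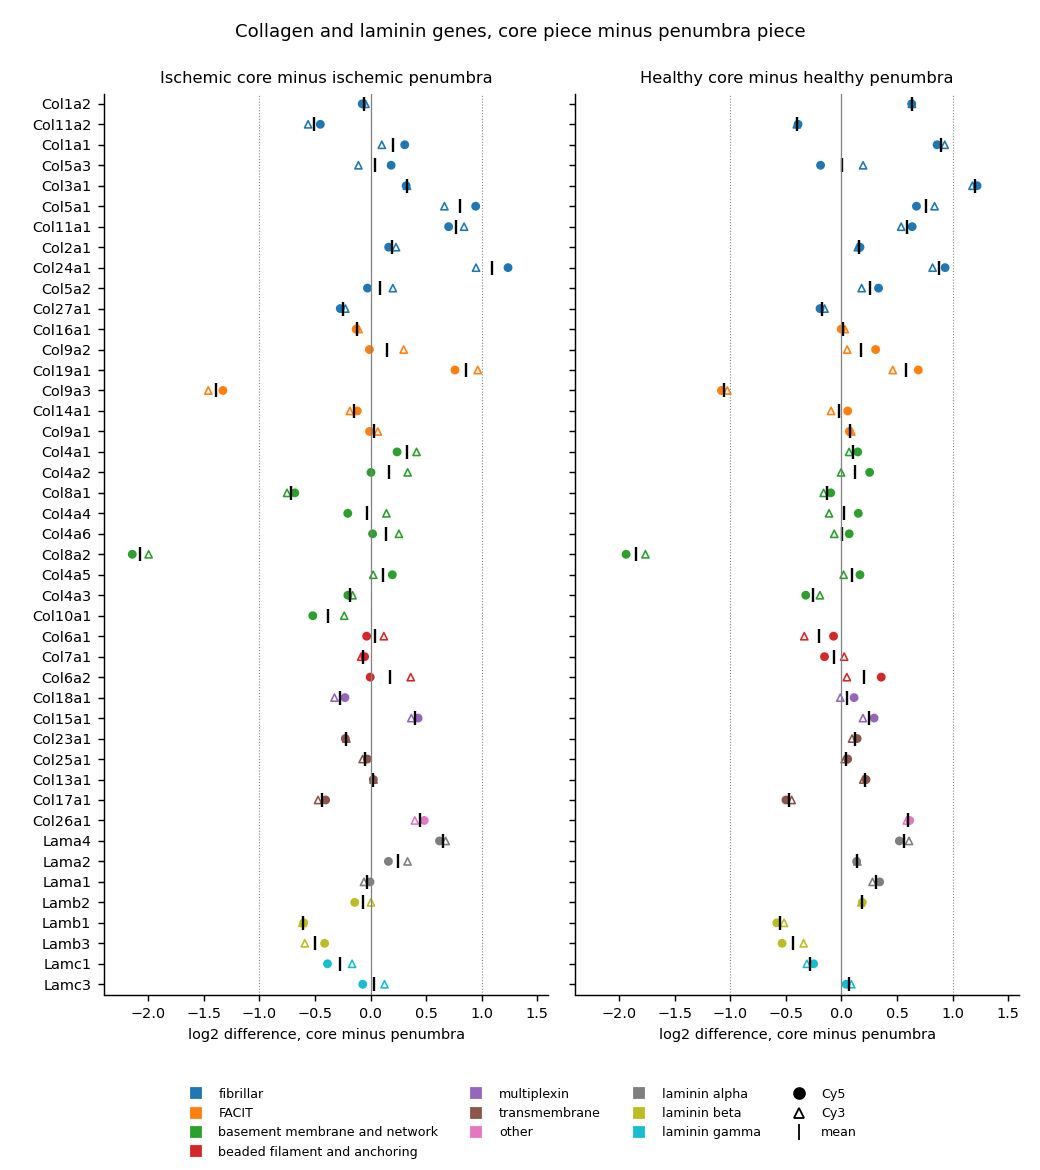
Log2 differences of core minus penumbra between the ischemic tissues (left) and between the healthy tissues (right), for these members in the same order as the plot of ischemic over healthy ratios. Filled circles are Cy5, open triangles Cy3, black ticks the mean, and dotted lines 1 log2 unit. Col8a2 and Col9a3 lie far to the left in both panels, and Col3a1 passes 1 in the healthy panel only.

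Among the other collagens, Col19a1, a fibril-associated collagen expressed by some neurons in mice, differed by 0.86 ± 0.14 between the ischemic and by 0.58 ± 0.16 between the healthy tissues. Its second probe gave 0.73 and 0.67, and its dimmest 0.30 and 0.32. Its ratio was 0.13 and -0.17 on the core arrays, and -0.17 and -0.45 on the penumbra arrays, where the dimmest probe had a mean of 0.03. Col26a1 differed by 0.44 ± 0.06 and 0.60 ± 0.02 between the same tissues. The brightest anchoring and beaded filament genes, Col6a1 and Col7a1, had core arrays of opposite sign, at 0.28 and -0.29 for Col6a1 and -0.07 and 0.33 for Col7a1. Their SDs, 0.40 and 0.29, were the widest among the members in the core. Among the transmembrane collagens, Col23a1 had core ratios of -0.15 and -0.13 and penumbra ratios of 0.17 and 0.23, and Col25a1, whose product binds amyloid beta, had -0.07 and -0.03, and -0.02 and 0.09. Of the multiplexins, Col15a1 had 0.10 and -0.02 in the core and -0.13 and -0.09 in the penumbra. The fibril-associated class as a whole ranged between -0.06 and 0.12 in the core and between -0.31 and 0.28 in the penumbra.

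By the lower size rule 3 of 9 laminins differed between the ischemic tissues (Lama4, Lamb1 and Lamb3), against 7.36% of features, and 2 (Lama4 and Lamb1) between the healthy tissues, against 5.91%. Lama4 was higher in the core, by 0.65 ± 0.04 between the ischemic and by 0.56 ± 0.06 between the healthy tissues, and its other 2 probes gave 0.56 and 0.38, and 0.56 and 0.39. Lamb1, the beta 1 chain of most vascular laminins, was lower in the core, at -0.61 ± 0.01 and -0.55 ± 0.05. Lamb3, a chain of laminin-332, differed by -0.50 ± 0.13 between the ischemic and by -0.44 ± 0.14 between the healthy tissues. The 8 endothelial markers had a median difference of 0.14 between the ischemic and 0.09 between the healthy tissues, and 0 of them met either rule. None of the 9 laminins met either rule for ischemia in the core or in the penumbra.

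Genes that process, bind or cut these proteins were also read. Of 20 measured genes of collagen synthesis and cross-linking, 0 met the size rule in the core and 1 was higher by the lower rule, P4ha1, a prolyl 4-hydroxylase subunit known as a target of hypoxia signalling. Its ratio was 0.72 ± 0.04 in the core and 0.43 ± 0.12 in the penumbra, where 0 of 21 genes of the list met either rule. Pcolce, which enhances the cleavage of procollagen I and III, had ratios of -0.19 ± 0.03 in the core and 0.49 ± 0.03 in the penumbra, with a difference of -0.67 that met the lower size rule. Of 8 basement membrane partners, 0 met either rule for ischemia. Smoc2, a matricellular calcium-binding protein, was higher in the core piece, by 1.17 between the ischemic and by 1.14 between the healthy tissues. Of 10 receptors, 0 met either rule for ischemia, and Itgb4, the laminin receptor chain of hemidesmosomes, was lower in the core piece, at -0.83 between the ischemic and -0.88 between the healthy tissues. Of 9 matrix metalloproteinases and inhibitors, 1 was higher by the lower rule in each region, Mmp8, the neutrophil collagenase, at 0.95 ± 0.07 in the core and 0.57 ± 0.05 in the penumbra. Spike-in scaling lowers these ratios by the shifts given above, which leaves P4ha1 above 0 in the core alone.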

How the data were processed

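RNA of 4 tissues was measured on 4 two-color arrays. The scanner files hold spot intensity in both dyes, extracted with Agilent Feature Extraction 11.0.1.1 as the submitters' processing notes state. The deposited table of values holds log10 ratios of Cy5 over Cy3, equal to those of the processed signals within 5e-06, with column medians of -0.0215 to 0.00516, and it was used only as a check.

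Median spot signals (192 to 225.5 in Cy3 and 284 to 310 in Cy5 by array, over backgrounds of 64 to 71) were background-corrected (normexp, offset 50) and loess-normalized array by array in limma 3.58.1 (R 4.3.3). Control and outlier spots had weight 0. Aquantile gave the single-channel values. The number of arrays limits the precision. Ratios were turned to ischemic over healthy. Measured probes were those well above background on each array of 1 or both tissues compared. Symbols came from RefSeq accessions, which named 23374 of 41174 probes (GRCm38.p6 table). All features were processed together, and limma p-values were adjusted over all of them (Benjamini-Hochberg, threshold 0.05). The size rule and limma were tested on simulated ratios of 1 pair of arrays, with changes above the threshold of the size rule. The lower size rule and the differences between regions or between pieces were not simulated.

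Members called by either size rule, and the 2 brightest of classes with none, were named with each array's value. Col4a1, Col4a2, Col5a2, Col9a1, Col9a2, Lama1 and single genes of the other lists that met a size rule or resembled a member were named after their values were seen. The members and lists were chosen with earlier results of these data known. Of the laminins, 1 gene is included in the counts, medians and ranges but is not reported by itself here. Alternatives were Agilent's processed signals, median centring, no filter on dim probes, the mean over probes, spike-in scaling (10 transcripts), the lower size rule, single arrays or dyes, and limma over arrays.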

Additional observations from a re-analysis of the deposited data

Results flagged for a closer look

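Core and penumbra ratios had opposite signs in 7 members, each below 0 on both core arrays and above 0 on both penumbra arrays (ischemic over healthy). Some of these values were close to 0: Col27a1 had -0.002 on core 2 and 0.007 on penumbra 3, and Col5a2 had -0.03 and -0.04 in the core. The core minus penumbra differences in log2 ratio were -0.8757 for Col3a1, -0.6936 for Col1a2, -0.6905 for Col1a1, -0.588 for Col8a1, -0.3404 for Col23a1, -0.1711 for Col5a2 and -0.0769 for Col27a1. With limma over all 4 arrays none of these differences passed (adjusted p 0.235 for Col3a1, 0.366 for Col1a1, and 0.475 for Col1a2 and Col8a1). With a dye coefficient 5 did (1.8e-05 for Col3a1, 8.9e-05 for Col1a2, 0.00013 for Col1a1, 0.00039 for Col8a1 and 0.0091 for Col23a1), but not Col5a2 (0.145) or Col27a1 (0.528). These p-values measure only the spread between the arrays. Such a split was seen in 16.3% of the 43 members measured in both regions and, in either direction, in 6.04% of 24206 features. Spike-in scaling lowers penumbra ratios by 0.46, more than the penumbra mean of any of these 7 genes. The opposition in sign was thus lost for all 7, while the differences remained.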

How the results depend on the processing

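Member means of at least 0.5 log2 in size gave 211 values under the alternatives, over 5 comparisons, each mean counting once per alternative. Of these values 0 had another sign. The largest spike-in shift, 0.48, was below 0.5, so that setting could not turn any of them. All of these means also met the lower size rule, so leaving out an array or a dye could not turn them either. Dropping the filter on dim probes turned no member's sign in any comparison. The absence of sign changes is thus informative only for processed signals, median centring and the mean over probes. Of all 1644 values, 189 had another sign, 65 of them with spike-in scaling. Counts by size moved as follows, and the cause was not tested. In the core, members lower numbered 1 of 43 with the lower rule, with processed signals and with spike-in scaling (main count 0), and 3 by limma. In the same order, 37, 15, 30 and 112 of all 24538 features were lower. In the penumbra, members higher numbered 1 of 45 with the lower rule and with processed signals (Col10a1, 2.35), and 2 by limma. In that order, 468, 189 and 982 of all 24930 features were higher. For core minus penumbra, members lower numbered 4 of 45 with the lower rule and 1 with processed signals, against 126 and 86 of 25249 features. Without a dye coefficient limma called 0 members and 2 features, with 9 members at an unadjusted p under 0.05, against 4.4% of features. With one it called 11 members lower and 2 higher, against 921 and 871 features. For the ischemic tissues, members higher numbered 5 of 45 with the lower rule, 2 with spike-in scaling and 0 in Cy3 alone (Col24a1, 0.95). All features higher numbered 848, 215 and 135 of 24875. Members lower numbered 6 with the lower rule and 4 with processed signals, against 983 and 623 features. For the healthy tissues, members higher numbered 9 of 44 with the lower rule and 3 with processed signals or spike-in scaling. All features higher numbered 648, 308 and 148 of 24894. Members lower numbered 4 with processed signals and 1 with spike-in scaling (Col9a3, -0.89), against 547 and 146 features. With spike-in scaling the members' medians were -0.47 in the core, -0.36 in the penumbra, 0.20 between the ischemic tissues and 0.26 between the healthy tissues. Dim probes (Col10a1, Col4a3, Col17a1, Col6a6, Col28a1) are limited by signal over background. No replicate block was fitted, since the regions share no replicate numbers; the dye coefficient and the differences within a dye match arrays of one dye orientation.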

Other observations

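Genes of a family that neighbour each other in the genome did not all have like values. Col3a1 and Col5a2 are adjacent, and their core ratios were -0.61 and -0.03, while their differences between healthy tissues were 1.20 and 0.26. Col9a1 and Col19a1, also adjacent, had healthy differences of 0.08 and 0.58. Col4a1 and Col4a2, whose promoter windows overlap, lay close together, with core ratios of -0.01 and -0.08, penumbra ratios of -0.23 and -0.12, and healthy differences of 0.11 and 0.12. Col4a6 and Col4a5, adjacent but without overlapping windows, lay as close. Their core ratios were 0.06 and 0.01, their penumbra ratios -0.07 and -0.01, and their healthy differences 0.002 and 0.09. A part of the shared window in the closeness was not tested.

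Of the dim members, Col17a1, a collagen of hemidesmosomes, was well above background in every tissue but the healthy core. Its measured signal was 1.39-fold lower there than in the healthy penumbra. Col4a3, whose chain joins the type IV network of specialised membranes, was not well above background in either core tissue. Its measured signal was 1.14-fold lower in the ischemic core than in the ischemic penumbra, and 1.20-fold lower between the healthy tissues. Each dimmer signal here was not well above background, so these ratios are not lower limits. The ischemic difference of Col4a3, -0.18 log2, is about the size of the spike-in shift of 0.18.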
